A study of Mus musculus with 20 samples.

Results

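Transcripts of 10 circadian clock genes (Arntl, Clock, Per2, Per3, Cry1, Cry2, Nr1d1, Nr1d2, Dbp and Tef) were followed in mouse brain at the onset and the progression of spinal muscular atrophy (SMA), a motor neuron disease caused by loss of the SMN protein. They were chosen by name, and each matched 1 of the 45700 gene rows in the deposited table of FPKM, a level scaled for transcript length and for the mapped fragments of the library. All 10 were among the 15247 genes that averaged 1 FPKM or more across all 20 libraries, on which every test below was run. The mice were the "Taiwanese" model on the FVB background: SMA mice (Smn-/-; SMN2tg/0) lacked mouse Smn and carried the human SMN2 transgene, and control littermates (Smn-/+; SMN2tg/0) kept 1 copy of Smn and carried the same transgene. Brains were taken at postnatal day 5 (P5, early symptomatic, 2 SMA and 2 control) and day 7 (P7, late symptomatic, 3 SMA and 3 control). RNA of the total cytoplasmic lysate and RNA sedimenting with polysomes in a sucrose gradient, the transcripts engaged by several ribosomes, gave 1 library each per replicate number. Within a fraction each number is read as 1 mouse, and a mouse left out is 1 number, dropped from both fractions. (The labels do not state that both fractions of 1 number came from the same brain, so fractions were not paired in the fits, and p-values measure the spread between these samples.) The deposited values hold no read counts, so the depth behind them is unknown.

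Mouse Smn1 itself was listed at 9.71 and 8.92 FPKM in the P5 control total libraries and at 9.55 and 10.1 FPKM in the P5 SMA total libraries. At P7 the control total libraries had 13.6, 14.1 and 16.7 FPKM and the SMA total libraries 11.9, 12.7 and 17.5 FPKM. The genotypes overlapped, and a value summed over a whole gene, in which the disrupted allele and reads of the human transgene cannot be set apart, did not check the genotype labels. The hour of dissection is not given in the sources used here. A difference between groups in any clock gene therefore cannot be told apart from a difference in the hour at which brains were taken, so the spread between mice of 1 group was measured for each of the 10 genes.

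The clock of mammalian cells is a loop of transcription and translation. BMAL1 (the product of Arntl) and CLOCK bind together to E-box sequences and switch on the Period and Cryptochrome genes, whose proteins return to the nucleus and silence them. A second loop runs through the nuclear receptors REV-ERB alpha (Nr1d1) and REV-ERB beta (Nr1d2), which compete with ROR receptors and repress Arntl, and another through the PAR bZIP factors DBP and TEF, which act on D-box sequences. All 10 are protein-coding genes. On GRCm38 the activators lie at chr7:113207465-113314126 (Arntl, plus strand) and chr5:76209868-76304792 (Clock, minus strand), and the repressors at chr1:91415982-91459324 (Per2), chr4:151003652-151044665 (Per3), chr10:85131700-85185064 (Cry1) and chr2:92403646-92434043 (Cry2), all on the minus strand. The REV-ERB genes lie at chr11:98767932-98775333 (Nr1d1) and chr14:18204054-18239127 (Nr1d2), both on the minus strand, and the output factors at chr7:45705088-45710203 (Dbp) and chr15:81802421-81826863 (Tef), both on the plus strand. In the adult the suprachiasmatic nucleus of the hypothalamus keeps the tissues in phase. In rodents the rhythms of most tissues strengthen only over the weeks after birth.

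To show the control sequences these names refer to, the 250 bases upstream of the RefSeq start site (build GRCm38.p6) were searched on both strands for 5 motifs. These were the E-box CACGTG, the E-box-like CACGTT, the D-box in the forms TTATGTAA, TTACGTAA, TTACATAA and TTATATAA, the RORE, the element of REV-ERB and ROR receptors, and the CRE TGACGTCA. Of 32851 promoters, 6.02% held the E-box, 3.85% the E-box-like motif, 1.43% a D-box, 0.35% a RORE and 1.55% a CRE. A promoter was listed for 9 of the 10 genes (all but Per2), and 5 of them held at least 1 match: Per3, Cry1, Cry2, Nr1d1 and Tef. Per3, Cry2 and Nr1d1 are printed because they hold a match and rose from P5 to P7 in polysomal RNA, and Arntl because it varied least of the 10. Each is written along the strand of its gene, with matches in capitals (AACGTG is CACGTT read on the other strand). The windows of Per3 (chr4:151044666-151044915, minus strand), Cry2 (chr2:92434070-92434319, minus strand), Nr1d1 (chr11:98775378-98775627, minus strand) and Arntl (chr7:113207215-113207464, plus strand) overlap no annotated exon.
Per3: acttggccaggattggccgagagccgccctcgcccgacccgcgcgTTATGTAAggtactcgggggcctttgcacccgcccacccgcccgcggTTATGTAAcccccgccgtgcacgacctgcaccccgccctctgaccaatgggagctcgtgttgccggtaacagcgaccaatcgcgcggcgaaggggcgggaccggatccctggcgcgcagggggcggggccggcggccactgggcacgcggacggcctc
Cry2: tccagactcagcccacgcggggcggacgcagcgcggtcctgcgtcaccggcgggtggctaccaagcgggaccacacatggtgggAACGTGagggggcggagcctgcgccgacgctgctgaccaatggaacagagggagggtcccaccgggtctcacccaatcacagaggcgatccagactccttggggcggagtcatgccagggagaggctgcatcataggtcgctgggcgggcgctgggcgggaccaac
Nr1d1: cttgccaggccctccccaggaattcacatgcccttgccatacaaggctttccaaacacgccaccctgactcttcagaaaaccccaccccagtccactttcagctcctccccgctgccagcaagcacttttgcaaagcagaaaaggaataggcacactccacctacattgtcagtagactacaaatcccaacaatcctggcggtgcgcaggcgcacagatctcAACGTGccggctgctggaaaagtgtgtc
Arntl: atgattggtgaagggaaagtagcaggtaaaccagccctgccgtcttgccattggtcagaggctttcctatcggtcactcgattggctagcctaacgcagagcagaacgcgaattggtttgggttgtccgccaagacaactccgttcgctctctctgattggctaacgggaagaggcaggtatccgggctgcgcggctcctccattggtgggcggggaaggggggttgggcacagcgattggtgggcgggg
The Per3 window held 2 copies of the D-box TTATGTAA, at -205 to -198 and -158 to -151 from the start site. Single E-box-like matches lay at -166 to -161 in Cry2 and -28 to -23 in Nr1d1, and the letters searched were not in the Arntl window. The Cry1 window held an E-box at -60 to -55 and an E-box-like match at -79 to -74, and the Tef window an E-box at -127 to -122. All 250 bases of the Tef window and 10 of the Cry1 window lie in annotated exons. A match is a description of the sequence alone.

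Per unit length, the PAR bZIP factor Tef had the most RNA of the 10 and the Period genes the least. Over the 20 libraries the mean level was 34.7 FPKM for Tef, 17.8 FPKM for Cry2, 16.4 FPKM for Nr1d1, 15.9 FPKM for Nr1d2, 13.1 FPKM for Clock and 10.1 FPKM for Arntl. The remaining means were 7.65 FPKM for Cry1, 4.31 FPKM for Dbp, 2.60 FPKM for Per2 and 2.35 FPKM for Per3. Tef was above Cry2, and Arntl above Cry1, in 20 of 20 libraries. Neighbours in this order were not always separate: Cry2 was above Nr1d1 in 15 libraries, Nr1d1 above Nr1d2 in 13, Dbp above Per2 in 15 and Per2 above Per3 in 9.

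**Figure D1:**
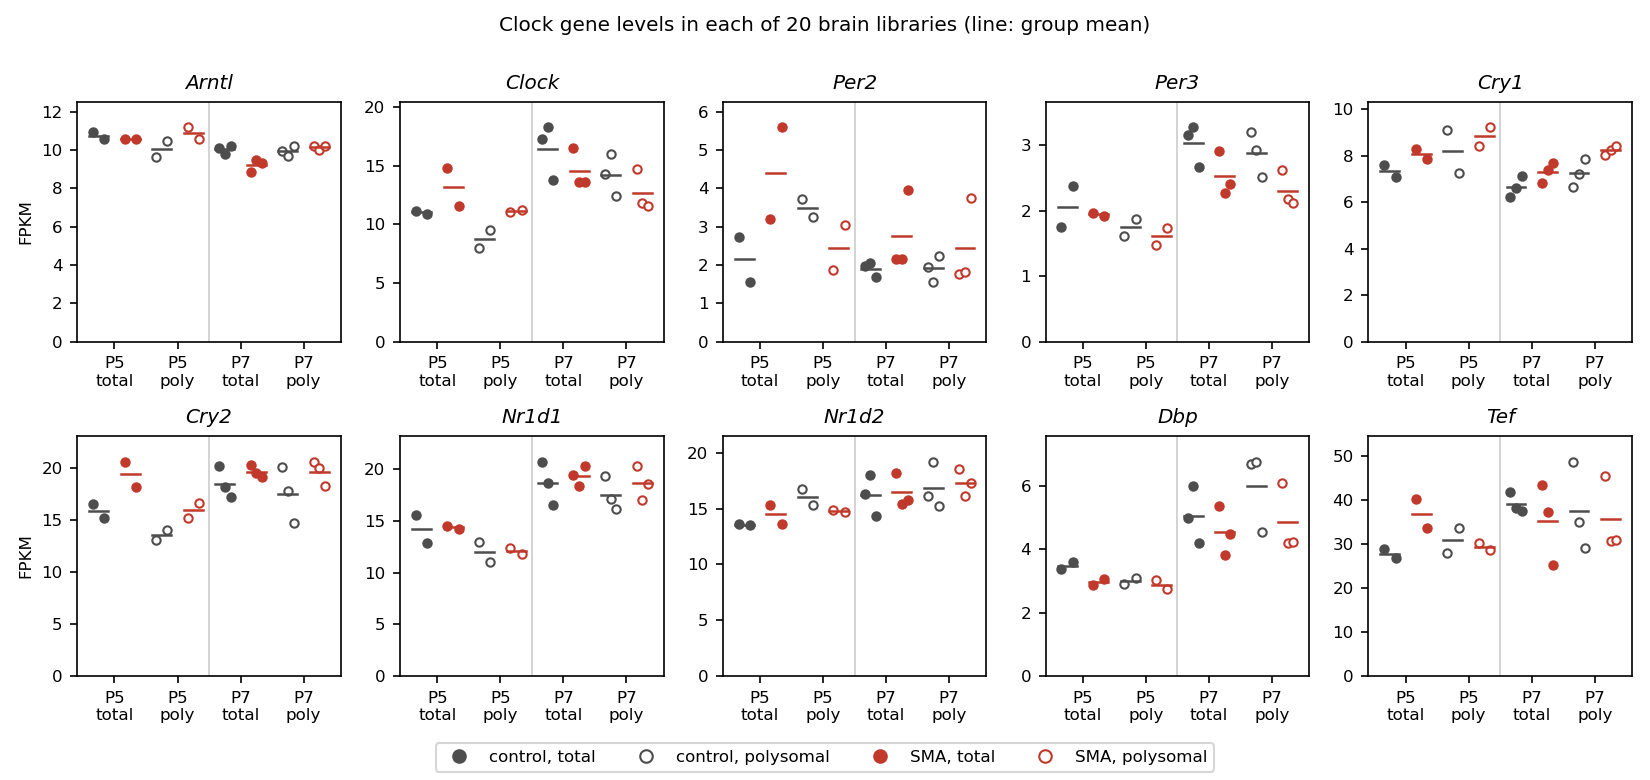
FPKM of the 10 clock genes in each library (points) and the group mean (lines), by postnatal day, RNA fraction (total, filled; polysomal, open) and genotype (control, grey; SMA, red). Arntl lies between 8.86 and 11.2 FPKM throughout, whereas Per2 spans 1.57 to 5.59 FPKM and the P7 libraries of Dbp and Nr1d1 sit above the P5 libraries.

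Whether mice of 1 group agreed in these genes was examined next, since mice taken at different hours could differ in them. The activator Arntl was the steadiest. Its pooled within-group SD was 0.04 on the log2 scale, lower than in all but 0.2% of the tested genes, against a median of 0.16 over all tested genes, and its highest library was 1.26 times its lowest. Per2, a repressor induced by light and hormones as well as by the clock, was the least steady, with an SD of 0.43 (percentile 90.1) and a highest library 3.56 times its lowest. Its mean level was at percentile 18.7 of the tested genes, and the part of its low level in this spread was not tested. Tef (SD 0.28, percentile 81.0) and Dbp (SD 0.23, percentile 75.1) also varied more than the median gene, Clock and Per3 had SDs of 0.18 and 0.17, and the SDs of Cry1, Cry2, Nr1d1 and Nr1d2 lay between 0.11 and 0.13. These percentiles describe the spread, and no test was made on them.

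**Figure D2:**
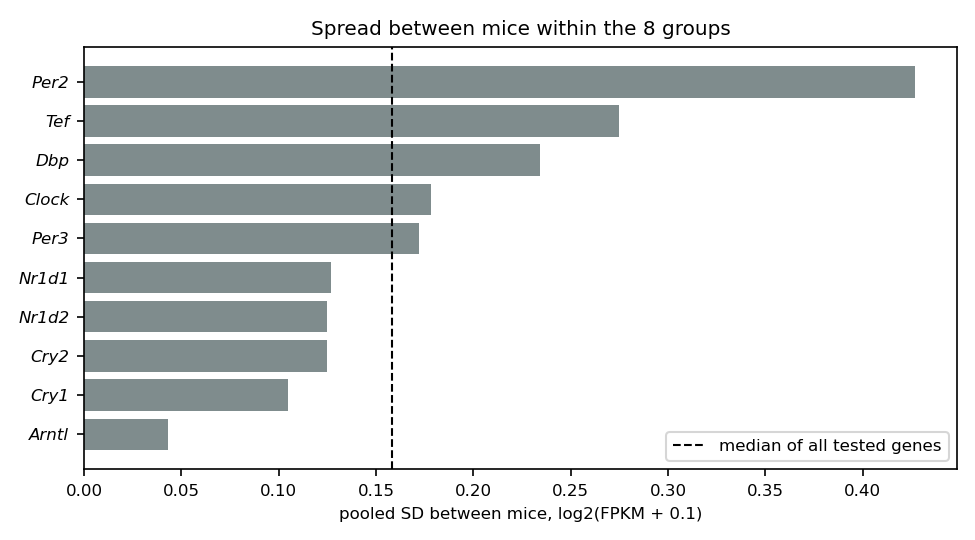
Pooled SD between mice within the 8 groups, on the log2(FPKM + 0.1) scale, for each clock gene (bars), with the median over all tested genes (dashed line, 0.16). Arntl is far below the line at 0.04 and Per2 far above it at 0.43.

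Where a gene departed from its group, both fractions of 1 mouse number could be compared. At P7, total and polysomal libraries of 1 number lay on the same side of their group means for Clock and Per3 in 6 of 6 mouse numbers, for Dbp, Nr1d1, Cry1 and Tef in 5, for Per2, Cry2 and Nr1d2 in 4 and for Arntl in 3. The count was not made over all tested genes, and deviations within a group sum to 0, so it is a description. Deviations at P7 correlated at -0.015 to 0.109 over all tested genes. Over the 14335 genes above 0 in every library they correlated at 0.162 to 0.449. Among the P7 control mice, Dbp was listed at 4.99, 6.0 and 4.19 FPKM in total RNA and at 6.69, 6.78 and 4.54 FPKM in polysomal RNA. The third replicate number was the lowest in each fraction. Per2 in the P7 SMA mice was listed at 2.17, 2.16 and 3.95 FPKM in total RNA and at 1.76, 1.81 and 3.75 FPKM in polysomal RNA. Here the third replicate number was the high one in both.

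The first comparison asked whether clock transcripts differed between SMA and control brains. Few calls were made. Over both stages, with stage as a covariate (limma on log2(FPKM + 0.1), 5 against 5 mice), 3 of the 10 genes passed an unadjusted p under 0.05 in total RNA, the threshold of the study, where 13.3% of all tested genes did. The 3 were repressors, Per2, Cry1 and Cry2, all higher in SMA brains, where 6.95% of tested genes were called higher. In polysomal RNA only Cry2 passed, where 16.2% of all tested genes did and 7.88% were called higher. None of the 10 had an adjusted p (Benjamini-Hochberg over all tested genes) under 0.05 in either fraction, where 0.623% (total) and 0.794% (polysomal) of tested genes did, and the lowest was 0.30. The median change was 0.05 (log2) over the 10 genes in total RNA and 0.01 in polysomal RNA, against medians of 0.005 and -0.002 over all tested genes.

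**Figure D3:**
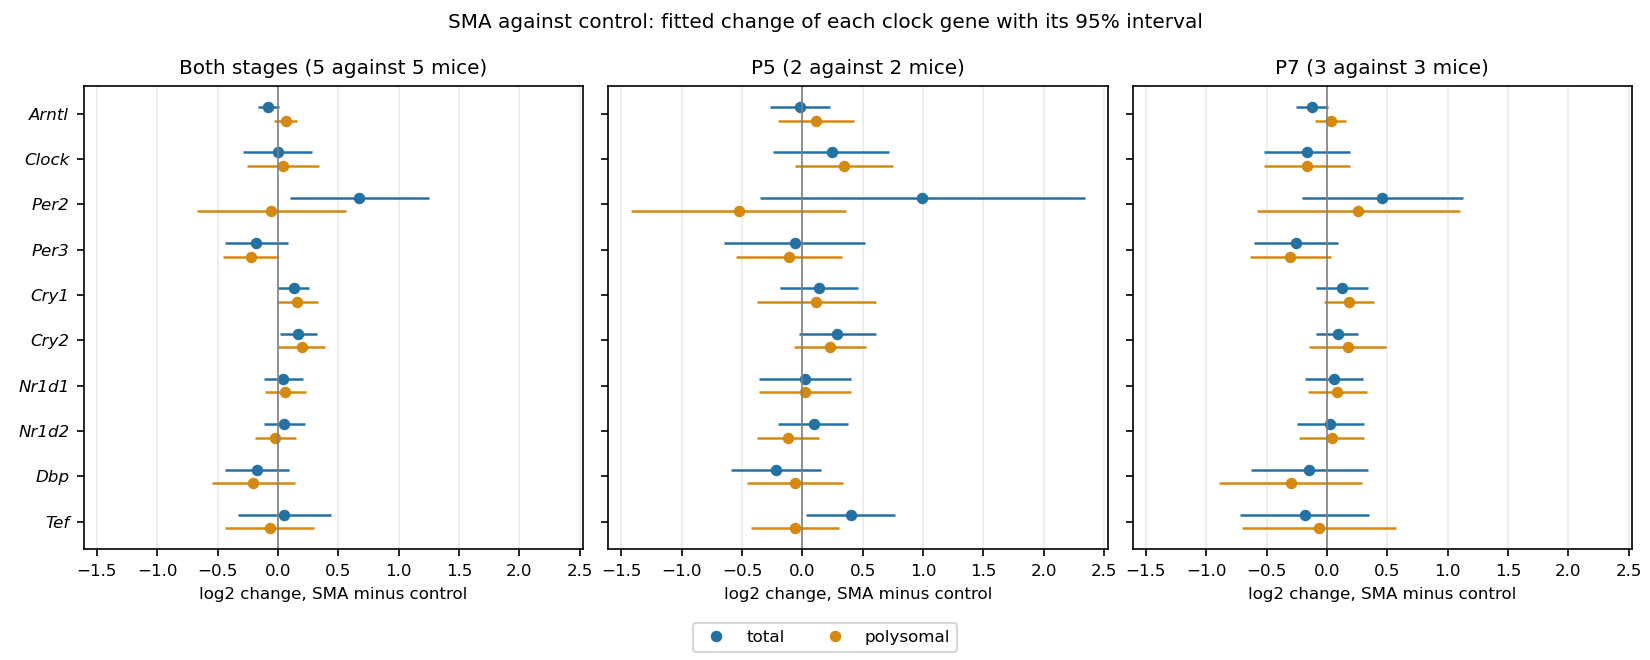
Fitted log2 change of each clock gene in SMA against control brains with its 95% interval, over both stages (left), at P5 (middle) and at P7 (right), in total (blue) and polysomal (orange) RNA. Intervals of Per2 are the widest. Those that exclude 0 are Per2, Cry1 and Cry2 in total RNA and Cry2 in polysomal RNA over both stages, and Tef in total RNA at P5.

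Neither activator was called over both stages. Arntl had 10.9 and 10.6 FPKM in the P5 control total libraries and 10.6 and 10.6 FPKM in the P5 SMA total libraries. At P7 it had 10.1, 9.81 and 10.2 FPKM in control total RNA and 8.86, 9.48 and 9.33 FPKM in SMA total RNA. The P7 groups did not overlap, and the P7 change was -0.12 (SE 0.05, adjusted p = 0.54, interval -0.26 to 0.01). Over both stages the change of -0.08 (SE 0.04) had an adjusted p of 0.41, with an interval of -0.17 to 0.01. Each of these changes was called lower in 3 of 11 other settings and in 0 of the fits that left out 1 mouse. Clock, the partner of BMAL1, was at -0.003 (SE 0.12, interval -0.29 to 0.28) in total RNA. By stage its total RNA change was 0.24 (SE 0.16) at P5 and -0.17 (SE 0.14) at P7, neither of them called.

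Among the repressors, Per2 differed most in size. In total RNA it was listed at 2.74 and 1.57 FPKM in P5 controls and 3.2 and 5.59 FPKM in P5 SMA mice. At P7 the controls had 1.98, 2.05 and 1.69 FPKM and the SMA mice 2.17, 2.16 and 3.95 FPKM. Every SMA library was above every control library of its day, 1 SMA mouse at each day stood well above its group, and the fitted change was 0.67 (SE 0.25, adjusted p = 0.30). The call was lost without the second P5 SMA mouse (change of 0.50), the third P7 SMA mouse (0.55), the second P5 control mouse (0.51) or the third P7 control mouse (0.66), with adjusted p from 0.40 to 0.54. The total RNA call was also lost with the replicate number as a block, alone or with a correction for transcript length (adjusted p = 0.49 and 0.50). That block joined control and SMA mice of 1 number, a pairing the labels do not state. Per2 was not called in polysomal RNA, where the change was -0.06 (SE 0.27, interval -0.67 to 0.56).

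Cry2, which with CRY1 holds back BMAL1 and CLOCK, was listed in total RNA at 16.5 and 15.2 FPKM in P5 controls and 20.6 and 18.2 FPKM in P5 SMA mice. At P7 it had 20.2, 18.2 and 17.2 FPKM in controls and 20.3, 19.5 and 19.2 FPKM in SMA mice. The genotypes were apart at P5 and overlapped at P7, with a change over both stages of 0.17 (SE 0.07, adjusted p = 0.33). That call held in 4 of the 10 fits that left out 1 mouse. In polysomal RNA the change was 0.20 (SE 0.09, adjusted p = 0.31), with a call that held in 2 of the 10 fits that left out 1 mouse. Cry1 was higher by 0.13 (SE 0.06, adjusted p = 0.37) in total RNA, a call that held in 2 of the 10 fits that left out 1 mouse and in 7 of 11 other settings, and was at 0.16 (SE 0.07, adjusted p = 0.34) in polysomal RNA. At P7 the polysomal Cry1 libraries did not overlap, at 6.65, 7.22 and 7.87 FPKM in controls and 8.04, 8.22 and 8.43 FPKM in SMA mice, but the change of 0.18 (SE 0.08, adjusted p = 0.50) was not called, where 10.7% of tested genes were. Per3 was not called, with changes of -0.18 (SE 0.11) in total and -0.23 (SE 0.10, adjusted p = 0.32) in polysomal RNA. The polysomal change lay close to the threshold: 7 of 11 other settings called it lower (quantile normalization, equal medians, a pseudocount of 1, no trend, the replicate block and length correction, alone or with the block), as did 4 of the 10 fits that left out 1 mouse, with adjusted p from 0.24 to 0.37.

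The REV-ERB genes and the output factors were not called in either fraction over both stages. Nr1d1 changed by 0.05 (SE 0.07, interval -0.12 to 0.21) in total and 0.06 (SE 0.07) in polysomal RNA, and Nr1d2 by 0.05 (SE 0.08) and -0.02 (SE 0.07). Dbp, whose transcript swings widely with the clock in adult tissues, was at -0.18 (SE 0.12, interval -0.44 to 0.09) and -0.20 (SE 0.15). Tef was at 0.05 (SE 0.17) and -0.07 (SE 0.16).

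Taken 1 stage at a time, the genotypes gave a single call. At P5 Tef was higher in SMA total RNA, at 40.2 and 33.7 FPKM against 29.0 and 26.8 FPKM in controls. The groups did not overlap, the change was 0.40 (SE 0.12, adjusted p = 0.55, held in 1 of the 4 fits that left out 1 mouse), and 8.25% of tested genes were called in that comparison, 4.36% higher. Its polysomal libraries overlapped, at 30.3 and 28.6 FPKM in SMA against 28.1 and 33.7 FPKM in controls. With limma, 0 of the 10 genes were called in P5 polysomal RNA (12.5% of tested genes were), 0 in P7 total RNA (9.54%) and 0 in P7 polysomal RNA (10.7%).

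Because polysomal and total RNA were measured side by side, the change in translation efficiency (TE, the polysomal change minus the total change) could be fitted for each gene. At P5, 2 of the 10 genes were called, where 2.32% of all tested genes were (1.06% lower), and both had lower TE in SMA brains. For Per2 the polysomal libraries held 3.73 and 3.25 FPKM in controls and 1.86 and 3.04 FPKM in SMA mice, in the opposite order to total RNA, and the TE change was -1.52 (SE 0.58, adjusted p = 1). For Tef it was -0.47 (SE 0.18, adjusted p = 1). The Tef call held in 6 of 11 other settings and was lost with the replicate number as a block. Each rests on 2 mice per genotype: the Per2 call held in 0 and the Tef call in 1 of the 4 fits that left out 1 mouse. At P7 the call was Arntl, 1 of the 10 genes where 2.07% of tested genes were called (1.09% higher). Its TE was higher in SMA brains by 0.15 (SE 0.06, adjusted p = 1), with polysomal levels of 9.94, 9.68 and 10.2 FPKM in controls and 10.2, 10.01 and 10.2 FPKM in SMA mice against the lower SMA total levels given above. The Arntl call held in 2 of the 6 fits that left out 1 mouse and in 6 of 11 other settings.

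A direct test asked whether the SMA effect differed between the stages. In total RNA 0 of the 10 genes passed (limma, 10.1% of tested genes did). In polysomal RNA 1 of the 10 passed, Clock, where 13.7% of tested genes did (6.86% lower). Clock polysomal RNA was listed at 8.0 and 9.56 FPKM in P5 controls and 11.1 and 11.2 FPKM in P5 SMA mice, and at 14.3, 16.0 and 12.4 FPKM in P7 controls and 14.8, 11.8 and 11.6 FPKM in P7 SMA mice. The SMA libraries were the higher at P5 and overlapped the controls at P7, a difference between the stages of -0.51 (SE 0.21, adjusted p = 0.36). P5 changes rose with transcript length across all genes, from a median of -0.13 in genes of up to 1837 bases to 0.15 in genes of at least 4673 bases in polysomal RNA, and Clock has a transcript of 9744 bases. After a correction for length the difference was -0.25 (adjusted p = 0.68) and no longer called.

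The second comparison, P7 against P5, gave more calls among the 10 genes. In total RNA 7 of the 10 genes were called, 5 higher and 2 lower, where 49.6% of all tested genes were called (23% higher and 26.6% lower), and in polysomal RNA 5 were called, all higher, where 54.7% were (26.4% higher). Over both genotypes, the count called was above that background share in total RNA and near it in polysomal RNA. The 5 higher calls in each fraction were above the share of tested genes called higher, a description with no test of the counts. Within SMA mice alone, with fewer mice, Arntl, Clock, Per3, Cry1 and Nr1d2 were not called in total RNA (limma), where 4991 of 15247 tested genes were. Within control mice alone Arntl, Cry1 and Nr1d2 were not called and Tef was. Fitted over both genotypes, Dbp, Nr1d1, Per3 and Clock rose in both fractions, Cry2 in polysomal RNA and Nr1d2 in total RNA. Arntl and Cry1 fell in total RNA. The day is shared with whatever else set the P5 and P7 brains apart, such as dissection hour and library preparation, and these cannot be told apart. In bulk tissue, fewer cells of a type and less RNA per cell cannot be told apart either.

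**Figure D4:**
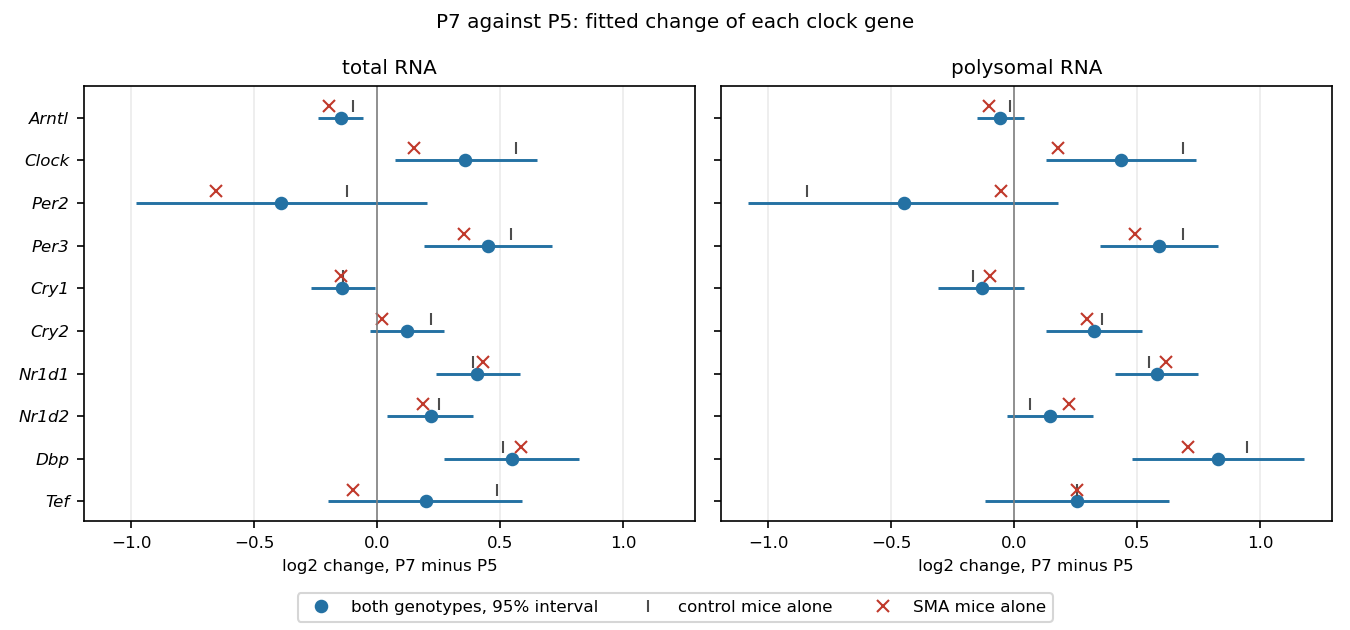
Fitted log2 change from P5 to P7 of each clock gene over both genotypes with its 95% interval (points and lines), and within control (bar) and SMA (cross) mice alone, in total (left) and polysomal (right) RNA. Dbp, Nr1d1, Per3 and Clock lie to the right of 0 in each panel and each genotype.

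Dbp had the largest rise. In total RNA it had 3.37 and 3.61 FPKM in P5 controls and 2.89 and 3.07 FPKM in P5 SMA mice, and 4.99, 6.0 and 4.19 FPKM in P7 controls and 5.39, 3.82 and 4.48 FPKM in P7 SMA mice. In polysomal RNA the P5 libraries held 2.92, 3.11, 3.03 and 2.75 FPKM and the P7 libraries 6.69, 6.78 and 4.54 FPKM in controls and 6.10, 4.22 and 4.24 FPKM in SMA mice. Every P7 library was above every P5 library in both fractions. The rise was 0.55 (SE 0.12, adjusted p = 0.0080) in total and 0.83 (SE 0.15, adjusted p = 0.0033) in polysomal RNA, and it stood at 0.51 in control and 0.59 in SMA mice taken alone in total RNA. The Dbp transcript shares 18% of its exonic bases with Sphk2 on the opposite strand, which rose by 0.17 (total) and 0.23 (polysomal) over the same days. The part of shared reads in the Dbp values was not tested.

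Nr1d1 also rose in both fractions. Its total RNA had 15.6 and 12.9 FPKM in P5 controls and 14.5 and 14.3 FPKM in P5 SMA mice. At P7 it had 20.8, 18.6 and 16.6 FPKM in controls and 19.5, 18.4 and 20.3 FPKM in SMA mice. No P7 library reached down to the P5 range, and the change was 0.41 (SE 0.08, adjusted p = 0.0035), or 0.58 (SE 0.08, adjusted p = 0.00069) in polysomal RNA. Within control mice alone the rise was 0.39 (adjusted p = 0.12) and within SMA mice alone 0.43 (adjusted p = 0.049) in total RNA. Nr1d1 shares 8.5% of its exonic bases with Thra on the opposite strand, which was listed at 441 to 632 FPKM, well above Nr1d1, and rose by 0.15 (total) and 0.24 (polysomal). The part of Thra reads in the Nr1d1 values was not tested.

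Per3 had 1.75, 2.37, 1.97 and 1.92 FPKM in the P5 total libraries and 3.16, 3.27 and 2.66 FPKM in P7 control and 2.91, 2.27 and 2.40 FPKM in P7 SMA total libraries. The days overlapped by 1 SMA library at P7, and the rise was 0.45 (SE 0.12, adjusted p = 0.015) in total and 0.59 (SE 0.10, adjusted p = 0.0026) in polysomal RNA. Clock rose by 0.36 (SE 0.13, adjusted p = 0.052) and 0.43 (SE 0.13, adjusted p = 0.027). That rise was 0.56 in control mice alone and 0.15 (adjusted p = 0.55) in SMA mice alone in total RNA. In polysomal RNA it was 0.18 (adjusted p = 0.35) in SMA mice alone. The ratio of P7 to P5 mean polysomal FPKM was 1.62 in controls and 1.14 in SMA mice, so 0.43 averages genotypes with unlike fitted rises. Their difference, tested above as the stage difference, had an adjusted p of 0.36 and was not called after length correction. Cry2 rose by 0.33 (SE 0.09, adjusted p = 0.015) in polysomal RNA and was at 0.12 (SE 0.07, adjusted p = 0.19) in total RNA. Nr1d2 rose by 0.22 (SE 0.08, adjusted p = 0.049) in total RNA.

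The 2 falls called over both genotypes were smaller than any called rise. Arntl, which REV-ERB proteins repress, fell by 0.15 on the log2 scale (SE 0.04, adjusted p = 0.019) in total RNA and was at -0.06 (SE 0.04, adjusted p = 0.29) in polysomal RNA. Cry1 fell by 0.14 (SE 0.06, adjusted p = 0.073) in total RNA and was at -0.13 (SE 0.08, adjusted p = 0.18) in polysomal RNA. The Cry1 call held in 4 of the 10 fits that left out 1 mouse and 4 of 11 other settings, and the fall was 0.07 (adjusted p = 0.35) with quantile normalization. Per2 and Tef were not called between the days over both genotypes, with changes of -0.39 (SE 0.26) and 0.20 (SE 0.17) in total RNA and -0.45 (SE 0.27) and 0.26 (SE 0.17) in polysomal RNA. Within control mice alone, Tef rose by 0.49 (adjusted p = 0.022) in total RNA, against -0.10 (adjusted p = 0.83) in SMA mice alone. Within control mice alone, Per2 fell by 0.84 (adjusted p = 0.046) in polysomal RNA, from 3.73 and 3.25 FPKM to 1.94, 1.57 and 2.24 FPKM, against -0.05 (adjusted p = 0.96) in SMA mice alone. The difference between the genotypes in these changes is the stage difference tested above, which was not called for Tef in total or Per2 in polysomal RNA.

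Between the fractions, 4 of the 10 genes were called, where 51.2% of all tested genes were (20.9% lower and 30.4% higher). Relative to the other transcripts, Clock (-0.24, SE 0.07, adjusted p = 0.011), Nr1d1 (-0.14, SE 0.06, adjusted p = 0.045) and Cry2 (-0.13, SE 0.06, adjusted p = 0.073) were lower in polysomal than in total RNA. Cry1 was higher by 0.14 (SE 0.05, adjusted p = 0.015). The others were not called. With the replicate number as a block, Per3 (-0.16, adjusted p = 0.025) and Nr1d2 (0.09, adjusted p = 0.045) were called too. Arntl was at 0.03 with an interval of -0.04 to 0.10.

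The rest of the clock was read from a fixed list of 22 further genes, all of them tested. Like the lists below, it was chosen with earlier results of these data known. Over both stages 4 of the 22 were called in total RNA, 3 higher and 1 lower in SMA, where 13.3% of all tested genes were (6.95% higher and 6.36% lower). In polysomal RNA 8 were called, 5 higher and 3 lower, where 16.2% were (7.88% higher and 8.3% lower). Nampt, the rate-limiting enzyme of NAD salvage and a clock-driven gene, was the one that passed adjustment. Its total RNA was 19.1 and 19.1 FPKM in P5 controls against 15.2 and 14.3 FPKM in P5 SMA mice, and 18.7, 18.4 and 19.1 FPKM in P7 controls against 15.7, 16.4 and 16.0 FPKM in P7 SMA mice. SMA libraries lay below every control library in both fractions, and the fall was 0.28 (SE 0.04, adjusted p = 0.025) in total and 0.46 (SE 0.07, adjusted p = 0.033) in polysomal RNA.

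Per1, the remaining Period gene, was listed in total RNA at 6.42 and 5.56 FPKM in P5 controls and 11.2 and 9.85 FPKM in P5 SMA mice, and in polysomal RNA at 3.63 and 5.18 FPKM against 7.05 and 9.20 FPKM. The P5 SMA libraries were above the P5 controls in each fraction, with changes of 0.80 (SE 0.14, adjusted p = 0.55) and 0.88 (SE 0.27, adjusted p = 0.39). At P7 the genotypes overlapped in total RNA, at 10.8, 11.1 and 13.2 FPKM in controls and 12.4, 10.9 and 13.2 FPKM in SMA mice. The SMA effect on Per1 was smaller at P7 by 0.74 in total RNA, a difference of -0.74 (SE 0.18, adjusted p = 0.49). Under the alternatives the P5 change of Per1 in polysomal RNA ranged from 0.63 to 1.13, and its call did not always hold. Over both stages Per1 was higher by 0.358 (SE 0.15, adjusted p = 0.36) in total RNA. That call held in 2 of the 10 fits that left out 1 mouse. In polysomal RNA Per1 was higher by 0.447 (SE 0.165, adjusted p = 0.25), held in 8 of the 10. Also higher in SMA total RNA over both stages were Rora, the receptor that opposes the REV-ERB proteins, by 0.33 (SE 0.09, adjusted p = 0.19), and Bhlhe41, a repressor acting at E-boxes, by 0.30 (SE 0.13, adjusted p = 0.37, held in 3 of the 10 fits that left out 1 mouse). In polysomal RNA the clock kinase gene Csnk1d (0.18, SE 0.04) and the ubiquitin ligase gene Fbxl21 (0.30, SE 0.09) were also higher, and the cell cycle kinase gene Wee1 (-0.30, SE 0.10) and Tipin, a partner of TIMELESS (-0.36, SE 0.12), were lower.

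**Figure D5:**
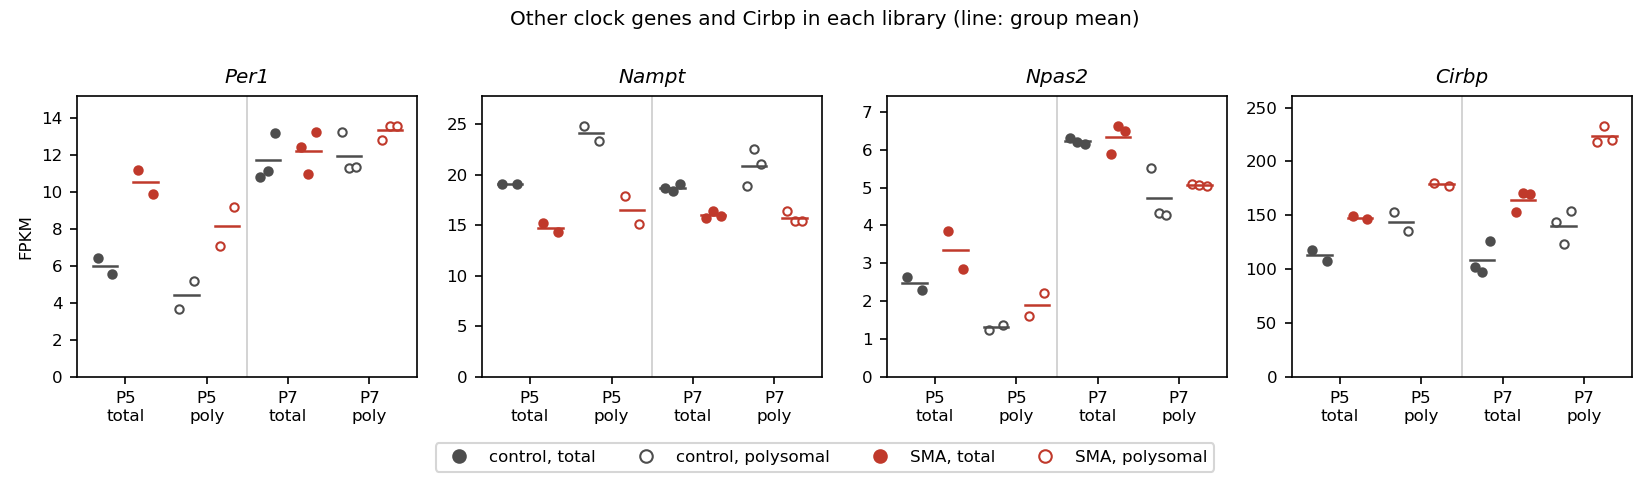
FPKM of Per1, Nampt, Npas2 and the cold-inducible gene Cirbp in each library (points) with the group mean (lines), by postnatal day, fraction (filled, total; open, polysomal) and genotype (grey, control; red, SMA). Nampt is lower and Cirbp higher in SMA libraries of both days, while Per1 is apart at P5 and Npas2 climbs from P5 to P7.

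From P5 to P7, 11 of the 22 further clock genes were called in total RNA (7 higher, 4 lower) and 14 in polysomal RNA (11 higher, 3 lower). Of all tested genes 49.6% (23% higher, 26.6% lower) and 54.7% (26.4% higher, 28.3% lower) were called. The share called in total RNA was near the background and that in polysomal RNA above it. The share called higher was above the background in each fraction, with no test of the counts. Npas2, a forebrain counterpart of Clock, rose by 1.11 (SE 0.11, adjusted p = 0.00024) in total and 1.58 (SE 0.13, adjusted p = 0.00011) in polysomal RNA. Bhlhe41 rose by 0.53 (SE 0.13) in total and 1.19 (SE 0.12) in polysomal RNA, and Per1 by 0.58 (SE 0.15) and 1.08 (SE 0.17). Tipin fell by 0.35 (SE 0.12) and 0.44 (SE 0.12). For Per1 and Tipin the total RNA values average genotypes whose fitted changes differed in size. In total RNA Per1 rose by 0.95 (adjusted p = 0.021) in control mice alone and was at 0.21 (adjusted p = 0.29) in SMA mice alone, and Tipin fell by 0.63 (adjusted p = 0.014) in control mice alone and was at -0.08 (adjusted p = 0.73) in SMA mice alone. The difference between the genotypes, tested as the stage difference in the SMA effect, was called for both in total RNA, with adjusted p of 0.49 for each.

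Signals that can reset a clock were read from short fixed lists. The lists were chosen with earlier results of these data known, so their counts beside background shares are a description and no test. Of 11 tested genes induced by glucocorticoids, 6 were higher and 0 lower in SMA brains over both stages in each fraction (limma, unadjusted p under 0.05), where 6.95% (total) and 7.88% (polysomal) of all tested genes were higher, with 11 of 11 positive in sign and medians of 0.42 and 0.40, against medians of 0.005 and -0.002 over all tested genes. Fam107a was higher by 1.91 (SE 0.16, adjusted p = 0.0024), Sult1a1 by 1.58 (SE 0.15, adjusted p = 0.0036) and Fkbp5, a chaperone of the glucocorticoid receptor, by 0.52 (SE 0.10, adjusted p = 0.071) in total RNA. The others called were Cdkn1a, an inhibitor of cell cycle kinases (0.58, SE 0.08, adjusted p = 0.024), Zbtb16, a transcription factor gene (0.42, SE 0.09, adjusted p = 0.093), and Mt2, a metallothionein gene (1.04, SE 0.34, adjusted p = 0.25). In polysomal RNA the called genes were the same 6. Tsc22d3 was called at P7 alone, in polysomal RNA (0.19, SE 0.05, adjusted p = 0.30). From P5 to P7, 7 of the 11 rose in each fraction, where 23% and 26.4% of all tested genes were higher, led by Fam107a (1.11) and Klf9 (0.99) in total RNA, and 2 fell in total and 1 in polysomal RNA. Per1 and Per2 are themselves known to respond to glucocorticoids, and the part of that signal in their values was not tested. Of 2 cold-inducible genes 1 was called over both stages in each fraction. Cirbp, an RNA-binding protein gene induced by mild cold, was higher by 0.52 (SE 0.08, adjusted p = 0.035) in total and 0.53 (SE 0.09, adjusted p = 0.044) in polysomal RNA, with every SMA library above every control library of its day and fraction. Rbm3, the other RNA-binding protein gene of the list, was at 0.10 (SE 0.10) in total and -0.04 (SE 0.10) in polysomal RNA. By stage it was called at P7 in total RNA alone (0.26, SE 0.10, adjusted p = 0.49). Among 7 tested immediate early genes 1 was lower in each fraction, Junb in total RNA (-0.39) and Ier2 in polysomal RNA (-0.44, SE 0.10, adjusted p = 0.10), where 6.36% and 8.3% of all tested genes were lower. The Junb call (SE 0.17, adjusted p = 0.37) held in 5 of 11 other settings and 3 of the 10 fits that left out 1 mouse. From P5 to P7, 5 of the 7 rose in total RNA and 3 in polysomal RNA, where 23% and 26.4% of all tested genes were higher, led by Egr1 (1.56 and 1.97), Nr4a1 (0.91 and 1.21) and Dusp1 (0.89 and 1.11). Fos (0.38) and Arc (0.44) rose in total RNA alone, and Ier2 fell by 0.36 in polysomal RNA.

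Of 12 markers of the suprachiasmatic nucleus and pineal gland 5 were tested, and with limma 0 were called between the genotypes over both stages in either fraction, where 13.3% and 16.2% of all tested genes were. By stage, Lhx1 was lower at P5 in total RNA (-0.63, SE 0.15, adjusted p = 0.55), Grp lower at P5 in polysomal RNA (-0.36, SE 0.10, adjusted p = 0.39) and Avp higher at P7 in total RNA (0.81, SE 0.24, adjusted p = 0.42), each 1 of the 5 where 8.25%, 12.5% and 9.54% of all tested genes were called. All 5 were negative in sign at P5 in each fraction, where 52% (total) and 47.3% (polysomal) of all tested genes were positive. The SMA effect differed between the stages in polysomal RNA for Grp (0.47, SE 0.09, adjusted p = 0.15) and Avp (1.25, SE 0.53, adjusted p = 0.36). In brain RNA taken in bulk the region behind these values cannot be told, and the part of the nucleus in them was not tested. Asmt, which makes melatonin, was listed at 0 in every library. Aanat, the enzyme before it, was listed at 0.92 FPKM (total) and 0.52 FPKM (polysomal) under the second P5 SMA replicate number. Elsewhere it was at no more than 0.09 FPKM. The total library of that number also had the highest total Per2, 5.59 FPKM, and the part of pineal tissue in its values was not tested. Vip, a neuropeptide gene of the nucleus and of cortical interneurons, rose from P5 to P7 by 1.13 in total and 0.89 in polysomal RNA.

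Markers of other brain cells also differed in these comparisons. All 5 pericyte markers were lower in SMA brains over both stages in each fraction (medians -0.58 and -0.55), where 6.36% and 8.3% of all tested genes were lower, and their summed level in total RNA, led by Rgs5, was 64.7 and 67.9 FPKM in P5 controls, 43.0 and 40.9 FPKM in P5 SMA mice, 61.0, 59.6 and 66.3 FPKM in P7 controls and 32.4, 38.7 and 37.4 FPKM in P7 SMA mice. Of 6 endothelial markers 4 were lower in each fraction, and 3 of 5 choroid plexus markers, led by Ttr, were higher in each. By stage (limma), 0 of the 5 choroid plexus markers were called at P5 in total or polysomal RNA, where 8.25% and 12.5% of all tested genes were. At P7, 5 were higher in total and 4 in polysomal RNA, where 9.54% and 10.7% of all tested genes were called. With limma over both stages, 0 of 6 neuron markers were called in total RNA and 1, higher, in polysomal RNA. Of all tested genes 6.95% (total) and 7.88% (polysomal) were higher. Of 6 astrocyte markers 2 were higher in total RNA, Aldoc (0.67, SE 0.09, adjusted p = 0.023) and Slc1a3 (0.20), and in polysomal RNA Aldoc was higher and Aqp4 lower. Of 8 oligodendrocyte lineage markers 2 were higher and 2 lower in total RNA, and 1 each way in polysomal RNA. Their summed level in P7 control total RNA was 184, 384 and 377 FPKM, the first mouse standing well below the others, and 433, 381 and 248 FPKM in P7 SMA mice. Of 5 erythroid markers 2 were lower in each fraction, Hba-a2 and Hbb-bt, gene copies between which reads may be split. Of 6 microglia markers 1 was higher and 1 lower in total RNA and 1 lower in polysomal RNA. Of 10 markers of tissues outside the brain 2 were tested, Pomc and Acta1, and Acta1 was higher in polysomal RNA, where it was listed at 0 in the P5 controls. From P5 to P7, 4 of 6 neuron markers rose in total and 5 in polysomal RNA, and 4 of 6 microglia markers and 3 of 8 oligodendrocyte lineage markers rose in each, where 23% (total) and 26.4% (polysomal) of all tested genes were higher. Choroid plexus markers went the other way over both genotypes, with 3 of 5 lower in total and 5 of 5 in polysomal RNA. Among 6 endothelial markers 3 were lower in each. Of all tested genes 26.6% and 28.3% were lower. Mean summed choroid plexus levels in total RNA went from 750 to 397 FPKM in controls and from 608 to 731 FPKM in SMA mice. In polysomal RNA they went from 998 to 526 FPKM and from 1004 to 988 FPKM. The stage difference in the SMA effect was called for 3 of 5 (total) and 4 of 5 (polysomal), where 10.1% and 13.7% of all tested genes were. The neuron markers, led by Stmn2, summed in total RNA to 2553 and 2336 FPKM in P5 controls, 1853 and 2390 FPKM in P5 SMA mice, 3218, 3198 and 3553 FPKM in P7 controls and 2822, 3369 and 3502 FPKM in P7 SMA mice. Tubb3, a neuronal tubulin, was listed at 0 in both P5 control polysomal libraries, while the other neuron markers were above 0 there. The part of cell makeup in the clock gene values was not tested.

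The genes whose log2 level followed a clock gene most closely were taken by Pearson correlation over the 20 libraries, which share mice, days and table, so r is a description. For Dbp these were Cx3cr1 (r = 0.943), Cap2 (0.942) and Ankrd34c (0.938), and Per3 stood at rank 65 (r = 0.895). After group means were removed they were Scn2b (0.911), Dusp3 (0.904) and P2ry12 (0.901), and Clock stood at rank 86 (r = 0.776). For Per2 the closest were Ica1l (0.710), Tpd52l1 (0.701) and Rom1 (0.674), so no gene followed it as closely as Cx3cr1 followed Dbp, and after group means were removed Degs2 (0.887), Rtn2 (0.883) and Pkig (0.859). For Nr1d1 they were Nr4a1 (0.948), Fezf2 (0.946) and Drd2 (0.945), and for Arntl Exosc10 (0.804), Meaf6 (0.786) and Afg3l2 (0.786). With group means removed they were Slc35f4 (0.909), Ephx4 (0.907) and Fastkd1 (0.906) for Nr1d1 and Gm2415 (0.903), Mex3d (0.862) and Nob1 (0.857) for Arntl. Of the other 9 clock genes, Cry1 (r = -0.622), Per2 (-0.544) and Arntl (-0.536) ran against Dbp over the libraries, or at -0.577, -0.263 and -0.397 with group means removed. From the most alike, Cry1 stood at rank 13430, Per2 at 12550 and Arntl at 12468 of the 15247 tested genes.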

How the data were processed

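RNA of total cytoplasmic lysate and of polysomes was sequenced from SMA and control mouse brains. The authors deposited 1 table of FPKM values per gene, made, per the submitters' processing notes, with TopHat2 (2.0.14), Cufflinks (2.2.1) and GRCm38.p4. FPKM hold no counts, so depth is unknown and no count test was used. Counting by strand is not given in the sources used here, so genes overlapping on opposite strands may share reads.

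Genes averaging 1 FPKM or more across all 20 libraries were fitted as log2(FPKM + 0.1), which understates changes of low genes, with limma 3.58.1 (lmFit, eBayes with trend) in R 4.3.3. A call was an unadjusted p under 0.05, the study's threshold. Benjamini-Hochberg values over all tested genes stand beside it. Fits over both stages had stage as covariate, and P7 against P5 had genotype. TE changes were fraction by genotype interactions. The procedure was tested on simulated data.

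The 10 genes and the lists were chosen with earlier results of these data known. Some genes of the lists are not reported here. Genes named by rule were all 10 in every comparison and further clock genes called between genotypes (and Per1). The rule also took called glucocorticoid-induced, immediate early and cold-inducible genes and the 3 most correlated genes for Dbp, Per2, Nr1d1 and Arntl. Of the other lists, the most abundant gene was named for some and not for all. Slc1a3, Aqp4, Hba-a2 and Hbb-bt were named as called markers of their lists. Npas2, Vip, Lhx1, Aanat, Asmt and Tubb3 were named after their values were seen. Promoters came from RefSeq (GRCm38.p6). Alternatives covered pseudocount, filter, normalization, model, replicate block, transcript length, each mouse left out and, chosen after seeing the data, each genotype alone.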

Additional observations from a re-analysis of the deposited data

Results flagged for a closer look

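By limma's test of the difference itself (unadjusted p under 0.05), the SMA effect differed between P5 and P7 for 1 of the 10 clock genes. It also differed for genes of other lists, named below with the P7 minus the P5 effect. None of those named passed adjustment over all tested genes. Markers of other cells are only counted here. Higher were 3 (total) and 4 (polysomal) of 5 choroid plexus markers, and lower were 2 of 5 pericyte markers in each fraction. In total RNA 1 microglia and 1 endothelial marker were higher. In polysomal RNA 1 oligodendrocyte lineage marker was higher, and 1 neuron marker and 1 marker outside the brain were lower. Of those last lists, Tubb3 and Acta1 were listed at 0 in both P5 control polysomal libraries, and a listed 0 can enlarge a fitted P5 effect.

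Clock had a difference of -0.507 in polysomal RNA (adjusted p = 0.36). Among the further clock genes, Per1 had -0.74 in total and -0.719 in polysomal RNA (adjusted p = 0.49 and 0.32), Btrc -0.276, Bhlhe40 -0.482 and Tipin 0.557 in total RNA, and Rorb -0.494 in polysomal RNA. Of the cold-inducible genes, Rbm3 had 0.417 in total and 0.456 in polysomal RNA and Cirbp 0.363 in polysomal RNA. The glucocorticoid-induced gene Tsc22d3 had 0.393 in polysomal RNA. Of the list of suprachiasmatic and pineal markers, Grp had 0.474 (adjusted p = 0.15) and Avp 1.249 (adjusted p = 0.36) in polysomal RNA. The brain region behind these values cannot be told in bulk RNA. Across all genes the P5 effects followed transcript length, so all but Grp and Avp were refitted with a correction for it. The calls of Per1 in both fractions, Tipin, Bhlhe40, Rbm3 in both fractions and Tsc22d3 held. Those of Clock (-0.25), Btrc (-0.18), Rorb (-0.25) and Cirbp (0.17) did not. With 1 mouse left out, the calls of Clock, Bhlhe40 and Rorb held in 3 of 10 fits, that of Cirbp in 5, those of Rbm3 in both fractions and of Per1 in polysomal RNA in 8, and those of Per1 in total RNA, Tipin, Btrc and Tsc22d3 in 10. Groups of 2 and 3 mice were too small for a test of single outlying samples.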

How the results depend on the processing

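Of 2430 single values of the 10 genes under alternatives, 2156 kept direction and side of the threshold, 105 lost and 63 gained a call, and 106, of 42 results, turned direction without a call in either fit. No called value of the 10 genes turned direction. The widest turns were those of Per2 at P7 in polysomal RNA (0.260, or -0.084 without the third P7 SMA mouse) and of Tef from P5 to P7 in total RNA (0.196, or -0.097 within SMA mice alone). Depth is unknown, so no limit from it can be given, and 2 or 3 mice per group set the precision. The causes of the changes below were not tested.

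With 1 mouse left out, the number of the 10 genes called ranged from 0 to 2 (SMA, both stages, total), 0 to 2 (polysomal), 0 to 3 (P5 total), 0 to 1 (P5 polysomal), 0 to 1 (P7 total), 0 to 2 (P7 polysomal), 0 to 1 (TE at P5), 0 to 1 (TE at P7), 5 to 8 (P7 against P5, total), 5 to 6 (polysomal), 0 to 1 (stage difference, total), 0 to 1 (polysomal) and 2 to 5 (polysomal against total). For SMA over both stages in total RNA the count of 3 became 2 with only genes above 0 everywhere, equal medians or 1 model (without Cry1) or the block, alone or with length correction (without Per2), and 4 without a filter or with length correction (with Arntl, lower). Quantile normalization kept 3, with Arntl in place of Cry1. For SMA over both stages in polysomal RNA the count of 1 became 0 without a filter, 2 with quantile normalization, equal medians, the replicate block or length correction with block, and 3 with length correction. At P5 in total RNA the count of 1 became 0 without a filter or without a trend and 2 with only genes above 0 everywhere or 1 model over 20 libraries. At P7 in total RNA the count of 0 became 1 without a filter, without a trend or with 1 model, and in polysomal RNA 1 without a filter, without a trend or with the replicate block. For TE at P5 the count of 2 became 1 without a filter, with quantile normalization, without a trend, with 1 model and with the block, alone or with length correction. For TE at P7 the count of 1 became 0 with only genes above 0 everywhere, equal medians, 1 model and length correction, alone or with the block. The stage difference in polysomal RNA fell to 0 with equal medians and length correction, alone or with the block. P7 against P5 in total RNA gave 2 within SMA mice alone. In that comparison Cry1 kept its call in 4 of 11 settings and Cry2 gained one in 3 of the 9 over both genotypes.

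Among all tested genes, calls without a filter rose from 2029 to 3207 (both stages, total), 1258 to 2907 (P5 total), 1902 to 3539 (P5 polysomal), 1454 to 2295 (P7 total), 1637 to 2546 (P7 polysomal), 354 to 1531 (TE at P5), 315 to 996 (TE at P7), 1547 to 2799 and 2084 to 3382 (stage difference, total and polysomal) and 7813 to 11817 (polysomal against total). With 1 model they were 3013 (P5 total), 3814 (P5 polysomal) and 590 (TE at P5), with the block 728 (P5 total) and 659 (TE at P7, or 620 with length correction), and with length correction 1024 and 1386 (stage difference, or 914 in total RNA with the block). Within SMA mice alone P7 against P5 in total RNA gave 4991 in place of 7558. Without the first P7 control mouse, TE at P7 gave 722 in place of 315. Fits that left out a P5 mouse kept 1 mouse in a group, and their counts over all genes moved both up and down.

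Outside the 10 genes, Mt2 at P5 in total RNA ranged from -0.415 (without the second P5 SMA mouse) to 1.536.

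The replicate numbers were not taken to pair the samples: deviations of same-numbered total and polysomal libraries correlated at -0.039 to 0.109 over all tested genes, with 3 of 6 P7 libraries closest to their own number. Over the 14335 genes above 0 everywhere the range was 0.095 to 0.449, with 6 of 6 closest to their own number, a hint of pairing from the data and not from the labels. In fits of TE and of polysomal against total RNA, the replicate block joined the fractions of 1 number. In fits of SMA against control it joined control and SMA libraries of 1 number, a pairing the labels do not state. Deviations of those libraries correlated at -0.144 to 0.103 over the genes above 0 everywhere. With the block, Per2 over both stages in total RNA (adjusted p = 0.49) was no longer called. Nor was the TE change of Tef at P5 (adjusted p = 1). Per3 in polysomal RNA was then called lower over both stages (-0.23, adjusted p = 0.31) and at P7 (-0.31, adjusted p = 0.52). Between polysomal and total RNA 6 of the 10 genes were called. P7 against P5 could not be fitted with the block.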
